A study of Mus musculus with 19 samples.

Results

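The genes described here were 10 genes of lipid-handling macrophages, out of 27998 genes in the count tables: the receptor gene Trem2, Gpnmb, Spp1, Fabp5, Lpl, Apoe, Lgals3, Cd9, Abca1 and Plin2. They were chosen by name, with earlier results of these data known. They were followed in gated cells, meaning cells with at least 1 Csf1r UMI and no Pdgfra UMI. Csf1r encodes the receptor for the macrophage growth factor CSF1, and Pdgfra marks fibroblast-like stromal cells. The gate held 15313 of 39541 cells in 19 libraries, and the 10418 cells with more Pdgfra than Csf1r UMIs (Pdgfra cells) served as the stromal comparison. Each of the 10 genes passed the filter on low counts in every comparison. Gpnmb, with 1 to 13 UMIs per library at day 0, passed in the comparisons with day 0 only through the injured libraries.

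Single cells were taken from mouse hind limbs at the site of an injury that leads to heterotopic ossification, the growth of bone in soft tissue. The injury combined a burn of 30% of the body surface with cutting of the Achilles tendon. There were 4 libraries at day 0, 3 at day 3, 4 at day 7 and 4 at day 21, and 4 libraries from injured mice given p7N3, a peptide that activates CD47. The study's results describe the day 0 cells as taken before injury, whereas the labels list the burn for those libraries too. The labels name C57 wild type mice and LysmCre/Tgfb1fx/fx mice, in which the Lysm promoter drives Cre in myeloid cells and deletes Tgfb1, for the series as a whole and tie neither to a library, so the genotype of each library is not known here. The peptide was injected intraperitoneally at 10 mg/kg daily, by the labels from 3 days before to 3 days after injury. The study's text instead gives daily injections for 3 weeks. The peptide's name and the PBS vehicle come from the study's methods, and the labels give no harvest day for p7N3 replicate 4. The day 7 libraries were the comparison for p7N3, and both groups carry the same injury. No peptide dose is listed for the day 7 libraries, and whether they were given the vehicle is not known here. An effect of the peptide therefore cannot be told apart from one of the injections.

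TREM2 is a surface receptor that binds lipids and lipoproteins and signals through the adaptor TYROBP. Macrophages that take in much lipid, in atherosclerotic plaques, fat tissue or demyelinated brain, are known to carry high levels of Trem2 together with genes for lipid uptake, storage and export. The members cover those steps: Trem2 senses lipid, LPL releases fatty acids from lipoproteins, FABP5 carries them inside the cell, PLIN2 coats lipid droplets, and ABCA1 and APOE take part in cholesterol export. GPNMB, galectin-3 (Lgals3), osteopontin (Spp1) and the tetraspanin CD9 are proteins commonly found with them in such cells.

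Start regions of 4 members are shown because they hold an AP-1 or E-box match. Windows of 300 bases around annotated starts (250 before, 50 after) came from RefSeq on GRCm38.p6 and matched 8 members in 11 windows. Fabp5 and Lpl had none. In the lines below, capitals mark matches on either strand to CACGTG (the E-box core read by MiT/TFE factors), TGANTCA (AP-1), GAGGAA (the PU.1 core) and AGGTCA (a nuclear receptor core), and no matches overlapped. Trem2 is chr17:48346151-48346400 on the plus strand, Abca1 chr4:53159896-53160145 on the minus strand, Gpnmb chr6:49036516-49036542 on the plus strand and Plin2 chr4:86670048-86670073 on the minus strand, each written 5′ to 3′ along its gene.
Trem2: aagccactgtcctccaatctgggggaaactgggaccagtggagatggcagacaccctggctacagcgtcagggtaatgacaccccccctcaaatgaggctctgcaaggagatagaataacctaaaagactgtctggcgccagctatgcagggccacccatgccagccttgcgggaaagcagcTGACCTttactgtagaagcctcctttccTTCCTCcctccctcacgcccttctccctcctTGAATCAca
Gpnmb: caggggcaagTGACTCAtgagcacgag
Abca1: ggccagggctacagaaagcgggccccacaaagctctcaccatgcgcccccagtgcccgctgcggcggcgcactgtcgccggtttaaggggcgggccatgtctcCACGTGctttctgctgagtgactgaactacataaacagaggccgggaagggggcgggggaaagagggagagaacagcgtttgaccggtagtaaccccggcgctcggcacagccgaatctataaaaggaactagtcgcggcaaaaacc
Plin2: gctgggctatCACGTGgctcggaggc
The Trem2 stretch ends at the base before its start and holds TGANTCA and, on the other strand, AGGTCA and GAGGAA. Gpnmb holds TGANTCA just after the RefSeq start of its window, which lies before the start that the GRCm38 gene annotation used here gives for Gpnmb, and Abca1 and Plin2 hold CACGTG before theirs or across it. TGANTCA was found in 7.81% of all 32851 windows, AGGTCA in 16.3% and GAGGAA in 28.3%. GAGGAA was also found in the windows of Spp1 and Apoe, which are not shown. The 2 members with CACGTG were Abca1 and Plin2, against 7.15% of all windows. A match is only a match of letters, and nothing here measured binding.

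Gated cells carried macrophage transcripts in every library: 10 macrophage markers summed to between 15664 and 27796 CPM (UMIs of a gene per 1000000 UMIs of the gated cells of a library). The gate took 8.91 to 14.7% of cells at day 0 and 69.8 to 76.5% at day 3, and its libraries held between 324205 UMIs (day 0) and 17810110 UMIs (day 3). Day 0 values therefore rest on the fewest UMIs. The gate needs only 1 Csf1r UMI, so the share gated can depend on the depth of the cells. Gated cells held a median of 4001 UMIs at day 0 and 10025 at day 3. With cells first thinned to equal depth, the day 0 gate held 108, 53, 75 and 55 cells, against 147, 75, 99 and 90 unthinned. The day 3 gate then held 722, 857 and 697 cells, against 1473, 1491 and 1293 unthinned. Transcripts of other cells were present. A list of 6 stromal genes was highest at day 21, where it summed to between 11509 and 29861 CPM. Its sums ran from 2083 to 7397 CPM on day 0, from 1205 to 2069 on day 3, from 4468 to 10669 on day 7, and under p7N3 from 4024 to 7377. Each comparison was therefore also made without collagen-rich cells, in which Col1a1, Col1a2 and Col3a1 made up over 0.5% of UMIs. The list then summed to 468 to 2546 CPM. Col1a1, Col1a2 and Col3a1 belong to the list, so part of this drop follows from the filter itself. Neutrophil markers summed to 2968 to 5774 CPM at day 3 and at most 885 elsewhere, and 5 osteoclast markers to between 149 and 267 at days 0 and 3, between 301 and 1081 at days 7 and 21, and up to 1179 with p7N3. Of the latter list, Calcr was at 0 at days 3 and 21 and with p7N3, and Ocstamp at day 0. T and NK cell markers reached at most 14.1 CPM. The part of these cells in the results below was not tested, except where a value without collagen-rich cells is given. A sum over gated cells cannot tell a change in the make-up of the cells from a change within each cell.

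Trem2 (ENSMUSG00000023992, GRCm38 chr17:48346401-48354147), the receptor, was lowest at day 0 and highest at day 7. Its level at day 0 was 154, 94.7, 163 and 84.7 CPM, at day 3 341, 408 and 358 CPM, at day 7 538, 674, 710 and 605 CPM, and at day 21 384, 362, 663 and 490 CPM. Every injured library lay above every day 0 library, while day 21 overlapped both day 3 and day 7. Trem2 rose by 1.69 ± 0.237 log2 units (SE; 3 against 4 libraries) at day 3 against day 0 (edgeR, Benjamini-Hochberg adjusted p = 0.00048), by 2.52 ± 0.233 at day 7 (adjusted p = 4.2e-05) and by 2.02 ± 0.277 at day 21 (adjusted p = 0.000986). It also rose from day 3 to day 7, by 0.74 ± 0.114 (adjusted p = 0.00184). The difference between day 21 and day 7 was -0.44 ± 0.188 (adjusted p = 0.104), and without day 21 replicate 3 it was -0.65 (adjusted p = 0.0121). Without collagen-rich cells, Trem2 was at 715 ± 112 CPM (SD over libraries) at day 7 and 701 ± 145 at day 21, with overlapping libraries.

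**Figure D1:**
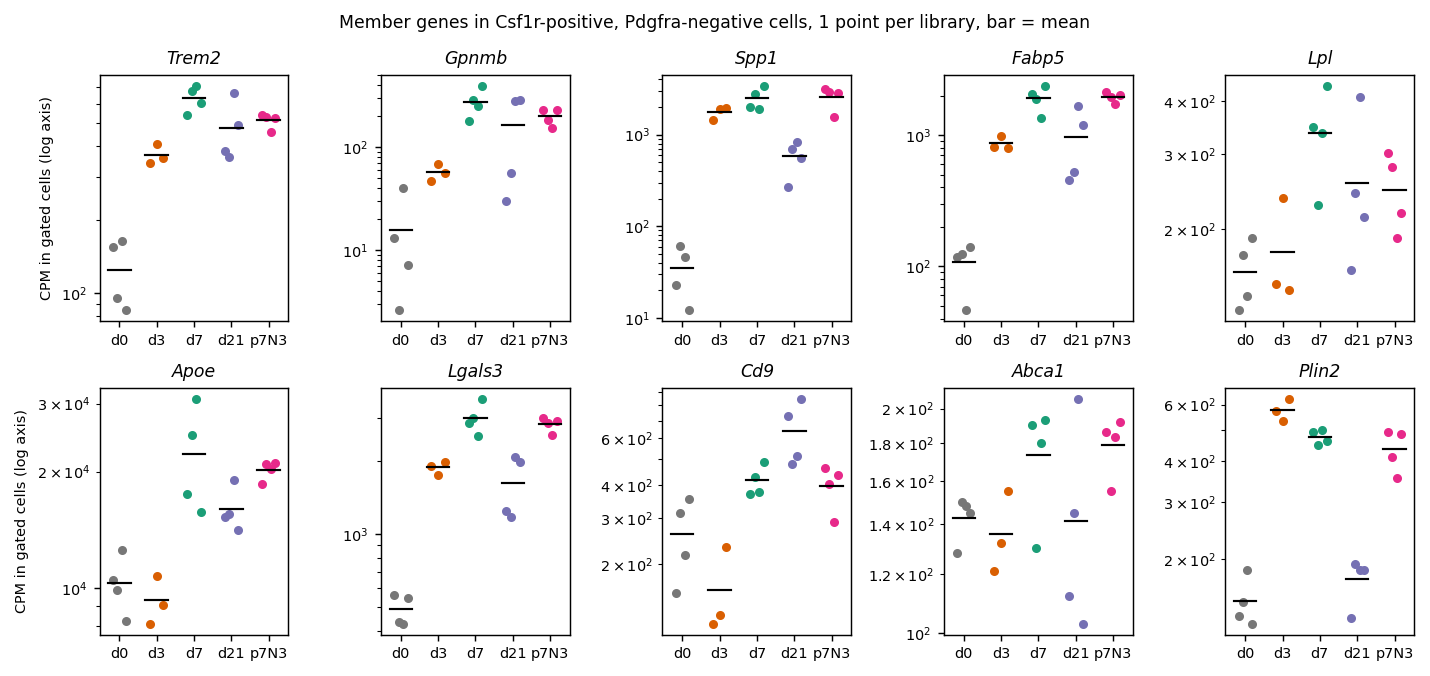
CPM of each of the 10 members in gated cells (log axis), with a point for each library, by group (day 0, day 3, day 7, day 21 and p7N3), and a bar at the group mean. Trem2, Spp1, Fabp5, Lgals3 and Gpnmb have their lowest group mean at day 0, whereas Abca1 stays between 103 and 206 CPM throughout.

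Across the first comparison, day 3 against day 0, 6 of the 10 members rose and none fell, where 50.2% of the 7700 genes tested passed, 23.8% higher and 26.4% lower. At day 7 all 10 rose, where 34.1% of 10784 genes passed, 16.8% higher and 17.2% lower, and at day 21 8 rose, where 23.8% of 8625 genes passed, 11.5% higher and 12.3% lower. The median log2 difference of the members was 1.88, 2.21 and 1.63 at days 3, 7 and 21, and that of all genes tested was -0.02, 0 and -0.01. These 3 comparisons share the day 0 libraries. Gpnmb, which passed the filter in them only through the injured libraries, is counted among the members that rose and in the medians each time. Since the members were chosen with earlier results of these data known, their excess over all genes is description and not independent support. With library size as the only scaling, the median of all genes was -0.17, -0.19 and -0.12, and the genes called higher and lower went from 1833 and 2034 to 1329 and 2436 at day 3, from 1817 and 1856 to 1179 and 2495 at day 7, and from 996 and 1059 to 794 and 1361 at day 21. From day 3 to day 7, 7 members rose and 1 fell, where 35.5% of 12490 genes passed, 17.6% higher and 17.9% lower, with a median of 0.81 for the members and 0 for all genes. From day 7 to day 21, 3 fell and 1 rose, where 28.4% of 11459 genes passed, 11.5% lower and 16.8% higher, with medians of -0.65 and 0.04.

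**Figure D2:**
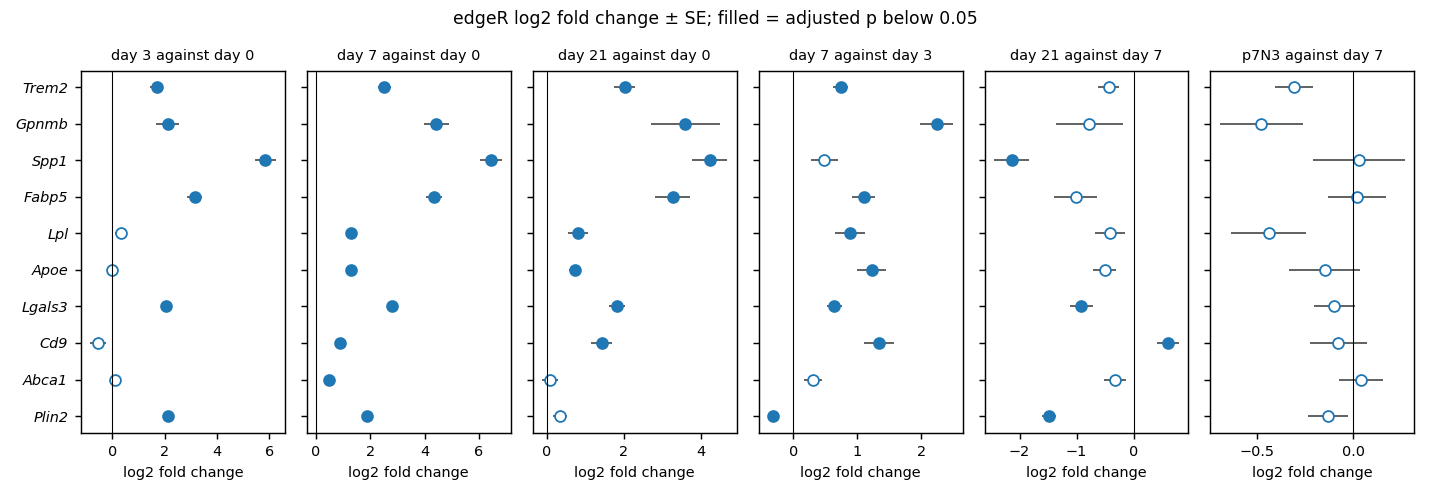
Log2 fold change ± SE of each member in each comparison (the x axes differ between panels), filled where the edgeR adjusted p was below 0.05. The largest values are those of Spp1 against day 0, 5.84 at day 3 and 6.43 at day 7, and no symbol is filled for p7N3 against day 7.

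Spp1 (ENSMUSG00000029304, chr5:104435118-104441050), which encodes the secreted bone matrix and cell adhesion protein osteopontin, had the largest change of the set. It was at 22.7, 60.5, 46.3 and 12.1 CPM at day 0 and at 1442, 1890 and 1953 CPM at day 3. It was at 2012, 2752, 1922 and 3417 CPM at day 7 and at 268, 701, 833 and 558 CPM at day 21. The day 0 and day 21 libraries overlapped no other group, whereas days 3 and 7 overlapped. Against day 0, Spp1 rose by 5.84 ± 0.4 log2 units at day 3 (edgeR adjusted p = 1.9e-05), 6.43 ± 0.401 at day 7 (adjusted p = 4.7e-06) and 4.22 ± 0.46 at day 21 (adjusted p = 0.00033), and it fell by 2.14 ± 0.311 from day 7 to day 21 (adjusted p = 0.000967). The day 7 against day 3 difference was 0.48 ± 0.21 (adjusted p = 0.105), and 0.66 without collagen-rich cells (adjusted p = 0.0489). Leaving those cells out raised the differences from day 0 to 6.79, 7.49 and 5.32 at days 3, 7 and 21.

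Gpnmb (ENSMUSG00000029816, chr6:49036546-49070929) encodes a transmembrane glycoprotein of lysosomes and the cell surface. Day 0 libraries held only 11, 1, 13 and 3 of its UMIs, or 13.1, 2.63, 40.1 and 7.26 CPM. It was at 46.6, 68.2 and 56.7 CPM at day 3, at 181, 285, 249 and 395 CPM at day 7, and at 30.4, 56.4, 282 and 286 CPM at day 21. The 4 libraries of day 21 were split, with 2 at or below the range of day 3 and 2 within the range of day 7, and the lowest lay below the highest day 0 library. Gpnmb rose by 2.11 ± 0.436 at day 3 (edgeR adjusted p = 0.00356), 4.43 ± 0.467 at day 7 (adjusted p = 8.2e-05) and 3.59 ± 0.893 at day 21 (adjusted p = 0.0156) against day 0, and by 2.24 ± 0.257 from day 3 to day 7 (adjusted p = 0.000608). Stromal cells also carried it at day 0, at 81.3 ± 6.46 CPM (SD, n = 4). With collagen-rich cells left out, day 0 held 6, 1, 1 and 0 UMIs and the 3 differences from day 0 were 3.88, 6.39 and 5.88. At days 3, 7 and 21 the differences were 2.89, 5.17 and 4.32 without day 0 replicate 3, and the call at day 21 was lost when only replicates 1 to 3 were used (2.93, adjusted p = 0.104).

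Lgals3 (ENSMUSG00000050335, chr14:47367751-47386160) encodes galectin-3, a sugar-binding protein of phagocytes. It was at 564, 434, 429 and 547 CPM at day 0, 1905, 1747 and 1985 CPM at day 3, 2874, 3009, 2534 and 3588 CPM at day 7, and 1250, 1171, 2078 and 1969 CPM at day 21. In all gated cells, day 0 and day 7 stood apart from every other day. Without collagen-rich cells, Lgals3 was at 3060, 3517, 2872 and 3990 CPM at day 7 and at 1660, 1598, 2329 and 3026 CPM at day 21. Day 21 replicate 4 then lay within the day 7 range. Lgals3 rose by 2.06 ± 0.136 at day 3 (edgeR adjusted p = 1.7e-05), 2.79 ± 0.156 at day 7 (adjusted p = 3.1e-06) and 1.82 ± 0.217 at day 21 (adjusted p = 0.000475), rose by 0.64 ± 0.118 from day 3 to day 7 (adjusted p = 0.00376), and fell by 0.92 ± 0.202 from day 7 to day 21 (adjusted p = 0.00754).

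Fabp5 (ENSMUSG00000027533, chr3:10012548-10016607), the gene of an intracellular fatty acid carrier, followed a similar course. Its libraries were at 118, 124, 46.3 and 140 CPM at day 0, 816, 991 and 801 CPM at day 3, 2069, 1875, 1342 and 2378 CPM at day 7, and 452, 523, 1676 and 1188 CPM at day 21. Day 21 was again spread, from below the day 3 libraries into the range of day 7. Fabp5 rose by 3.15 ± 0.279 at day 3 (edgeR adjusted p = 5.3e-05), 4.34 ± 0.295 at day 7 (adjusted p = 7.4e-06) and 3.26 ± 0.457 at day 21 (adjusted p = 0.00105) against day 0, and by 1.1 ± 0.179 from day 3 to day 7 (adjusted p = 0.00226). The day 21 against day 7 difference was -1.02 ± 0.376 (adjusted p = 0.0655). It was -1.43 without day 21 replicate 3 (adjusted p = 0.0116) and passed with DESeq2 (-1.05, adjusted p = 0.0235).

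Plin2 (ENSMUSG00000028494, chr4:86648386-86670060), whose protein coats lipid droplets, was high at days 3 and 7 and back near its day 0 level at day 21. It was at 133, 147, 185 and 126 CPM at day 0, 573, 533 and 624 CPM at day 3, 493, 451, 499 and 463 CPM at day 7, and 131, 193, 184 and 185 CPM at day 21. The day 0 and day 21 libraries overlapped, and days 3 and 7 lay above both. Plin2 rose by 2.11 ± 0.159 at day 3 (edgeR adjusted p = 2.6e-05) and 1.89 ± 0.144 at day 7 (adjusted p = 1.3e-05), and fell by 0.32 ± 0.0776 from day 3 to day 7 (adjusted p = 0.0133) and by 1.49 ± 0.124 from day 7 to day 21 (adjusted p = 1e-04). At day 21 it differed from day 0 by 0.34 ± 0.178 (adjusted p = 0.192), and passed without collagen-rich cells (0.77, adjusted p = 0.0140), with Cd68 required (0.73, adjusted p = 0.00492) and in a single fit of the 5 groups (0.40, adjusted p = 0.0498). The fall from day 3 to day 7 was -0.13 without those cells (adjusted p = 0.289) and -0.24 without day 3 replicate 3 (adjusted p = 0.0738). It also missed the threshold with Cd68 required (-0.07, adjusted p = 0.561), with at least 2 Csf1r UMIs (-0.16, adjusted p = 0.169), with the gate after thinning (-0.35, adjusted p = 0.0690) and in a single fit (-0.32, adjusted p = 0.105).

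Lpl (ENSMUSG00000015568, chr8:68880491-68907448) encodes lipoprotein lipase, which splits triglyceride in lipoproteins. Its libraries were at 129, 174, 139 and 191 CPM at day 0, 149, 237 and 144 CPM at day 3, 347, 228, 336 and 435 CPM at day 7, and 160, 244, 410 and 214 CPM at day 21. Only day 7 stood above every day 0 library. Lpl rose by 1.29 ± 0.193 at day 7 (edgeR adjusted p = 0.000614) and by 0.81 ± 0.264 at day 21 (adjusted p = 0.046) against day 0, and by 0.88 ± 0.232 from day 3 to day 7 (adjusted p = 0.0174). The differences at day 3 against day 0 and at day 21 against day 7 were 0.31 ± 0.206 (adjusted p = 0.237) and -0.42 ± 0.262 (adjusted p = 0.26), and the latter passed without day 21 replicate 3 (-0.74, adjusted p = 0.0223). Without collagen-rich cells, Lpl was at 369 ± 87.7 CPM (SD over libraries) at day 7 and 357 ± 101 at day 21. The day 3 difference passed with at least 2 Csf1r UMIs (0.83, adjusted p = 0.00863) and with the gate after thinning (0.43, adjusted p = 0.0338). The call at day 21 against day 0 was lost when any library except day 21 replicate 1 was left out, with differences from 0.55 (without day 21 replicate 3, adjusted p = 0.0537) to 0.91 (without day 0 replicate 4, adjusted p = 0.0643). That at day 7 against day 3 was lost without day 3 replicate 1 (0.77, adjusted p = 0.0706) or replicate 3 (0.77, adjusted p = 0.0671).

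Apoe (ENSMUSG00000002985, chr7:19696109-19699188), the apolipoprotein that carries lipid out of macrophages, was abundant at every time. Its libraries were at 10468, 9903, 12560 and 8224 CPM at day 0, 8101, 10749 and 9048 CPM at day 3, 17500, 24834, 30810 and 15730 CPM at day 7, and 15269, 15543, 18987 and 14163 CPM at day 21. Days 0 and 3 overlapped, and days 7 and 21 lay above both. Apoe rose by 1.3 ± 0.213 at day 7 (edgeR adjusted p = 0.00108) and 0.73 ± 0.14 at day 21 (adjusted p = 0.0047) against day 0 and by 1.22 ± 0.229 from day 3 to day 7 (adjusted p = 0.00409). The day 3 against day 0 difference was -0.01 ± 0.154 (adjusted p = 0.959), and -0.36 in gated cells that also held Cd68 (adjusted p = 0.0418). The day 21 against day 7 difference was -0.51 ± 0.199 (adjusted p = 0.0793) and passed with DESeq2 (-0.54, adjusted p = 0.0460), without day 7 replicate 1 (-0.62, adjusted p = 0.0466) and without day 7 replicate 4 (-0.65, adjusted p = 0.0291). Without collagen-rich cells, Apoe was at 25242 ± 8662 CPM (SD over libraries) at day 7 and 23787 ± 1187 at day 21, inside the day 7 range.

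Abca1 (ENSMUSG00000015243, chr4:53030787-53159895), the transporter that hands cholesterol to apolipoproteins, moved least. It was at 128, 150, 148 and 145 CPM at day 0, 121, 132 and 155 CPM at day 3, 190, 130, 180 and 193 CPM at day 7, and 112, 145, 206 and 103 CPM at day 21, and every pair of days overlapped. Its 1 call was a rise of 0.48 ± 0.14 at day 7 against day 0 (edgeR adjusted p = 0.0218). The call was lost with library size as the only scaling (0.28, adjusted p = 0.164) and without day 0 replicate 1 (0.46, adjusted p = 0.0544) or day 7 replicate 1 (0.38, adjusted p = 0.0815), 3 (0.40, adjusted p = 0.0694) or 4 (0.36, adjusted p = 0.0905). The other 2 differences from day 0 were 0.08 ± 0.127 at day 3 and 0.09 ± 0.21 at day 21, and both turn below 0 under library size scaling. Without collagen-rich cells Abca1 also passed at day 21 against day 0 (0.55, adjusted p = 0.0279) and at day 7 against day 3 (0.48, adjusted p = 0.0189), and it passed at day 7 against day 3 without day 7 replicate 2 (0.42, adjusted p = 0.0208) and at day 21 against day 7 without day 21 replicate 3 (-0.57, adjusted p = 0.0190).

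Cd9 (ENSMUSG00000030342, chr6:125460266-125494791) encodes a tetraspanin that macrophages share with fibroblasts and endothelial cells. It was at 155, 313, 216 and 353 CPM at day 0, 119, 128 and 232 CPM at day 3, 370, 428, 376 and 489 CPM at day 7, and 729, 478, 513 and 846 CPM at day 21. It was the 1 member called higher at day 21 than at day 7, and those groups overlapped. Cd9 rose by 0.9 ± 0.215 at day 7 (edgeR adjusted p = 0.00846) and 1.43 ± 0.27 at day 21 (adjusted p = 0.00436) against day 0, by 1.34 ± 0.235 from day 3 to day 7 (adjusted p = 0.00311) and by 0.6 ± 0.195 from day 7 to day 21 (adjusted p = 0.0402). The day 3 against day 0 difference was -0.54 ± 0.311 (adjusted p = 0.179), and -0.89 without day 3 replicate 3 (adjusted p = 0.0337).

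Cd9 at day 21 stood beside the highest stromal sums of any group. With collagen-rich cells left out, which kept 77.9 to 89.7% of gated cells at day 21, Cd9 was at 253, 323, 342 and 387 CPM. The day 21 against day 7 difference was then -0.40 (edgeR adjusted p = 0.110), opposite in sign, and the day 21 against day 0 difference 0.74 (adjusted p = 0.0644). The rise from day 7 to day 21 was also lost without day 7 replicate 1 (0.54, adjusted p = 0.0970), 2 (0.63, adjusted p = 0.0661) or 3 (0.55, adjusted p = 0.0965), and without day 21 replicate 1 (0.53, adjusted p = 0.109) or 4 (0.40, adjusted p = 0.135). Trem2 at day 21 was at 623, 535, 804 and 839 CPM in the same cells, higher than in all gated cells in each of the 4 libraries.

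**Figure D3:**
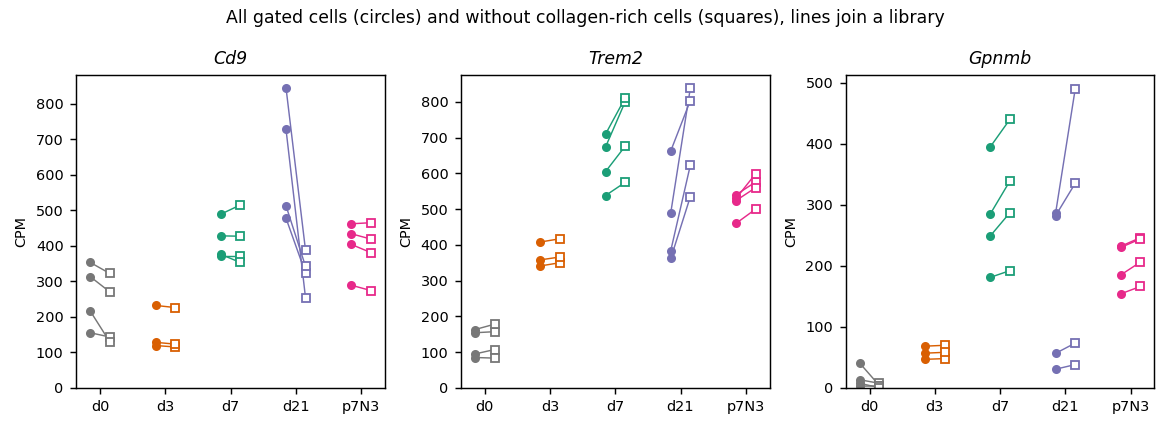
CPM of Cd9, Trem2 and Gpnmb in each library, in all gated cells (circles) and without collagen-rich cells (squares), by group. At day 21 the squares of Cd9 lie at 253 to 387 CPM, below circles at 478 to 846, and those of Trem2 lie above their circles.

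Against Pdgfra cells of the same libraries, 8 of the 10 members were higher in gated cells, where 79.2% of 12463 genes passed, 38.2% higher and 41% lower (19 libraries, library as block). Apoe was higher by 4.85 ± 0.256 log2 units (edgeR adjusted p = 7.9e-14) and Trem2 by 5.76 ± 0.289 (adjusted p = 3.3e-14), each in 19 of 19 libraries. Fabp5, Lgals3, Abca1 and Plin2 were also higher in 19 of 19, by 2.27 to 2.58. Spp1 was higher by 1.31 ± 0.234 (adjusted p = 2.5e-05), in 15 of 19, and Gpnmb by 2.2 ± 0.567 (adjusted p = 0.00127), in 13 of 19. Lpl (0.93 ± 0.424, adjusted p = 0.0501) and Cd9 (-0.39 ± 0.186, adjusted p = 0.0571, lower in 15 of 19) did not pass, and with DESeq2 both did. Lpl in Pdgfra cells was at 776 ± 73.3 CPM (SD, n = 4) at day 0, against 158 ± 29.1 CPM in gated cells.

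The p7N3 libraries were compared with day 7 to ask whether the peptide altered these genes. With p7N3, Trem2 was at 540, 530, 460 and 524 CPM, so that 3 of the 4 libraries lay below the lowest day 7 library (538 CPM) and the other was next to it. Gpnmb was at 232, 185, 154 and 230 CPM and Lpl at 303, 280, 191 and 218 CPM, each within or below the day 7 range. None of the 10 members passed, and neither did any of the 12128 genes tested (0%), while 1055 genes (8.7%) had an unadjusted p below 0.05 in edgeR and 16 genes passed in DESeq2. Trem2 (-0.31 ± 0.1, edgeR adjusted p = 0.528), Gpnmb (-0.48 ± 0.216, adjusted p = 0.571) and Lpl (-0.44 ± 0.195, adjusted p = 0.571) were the 3 members among those 1055. The median difference was -0.12 for the members and 0 for all genes.

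The other 7 members were also found over overlapping ranges. Spp1 was at 3137, 2929, 1544 and 2814 CPM with p7N3 and differed by 0.03 ± 0.239, and Plin2 was at 493, 414, 356 and 488 CPM and differed by -0.13 ± 0.104. Apoe was at 18617, 20919, 20320 and 21089 CPM, inside the day 7 range. Fabp5, Lgals3, Cd9 and Abca1 lay between -0.1 and 0.04. With SEs up to 0.239, differences of this size do not show that the groups were alike.

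At the level of cells, shares were compared after thinning each cell to 1500 UMIs. Trem2 was detected in 49.6% ± 5.35 (SD, n = 4) of gated cells at day 7 and in 42.2% ± 3.67 (n = 4) with p7N3 (exact permutation test, 2-sided, p = 0.0857). Lpl was detected in 19.7% ± 3.37 and 12.8% ± 2.34 (exact permutation p = 0.0571), and Gpnmb in 14.3% ± 1.42 and 11.5% ± 3.29 (exact permutation p = 0.171). None of the 10 members was below 0.05 without adjustment, where the smallest p possible with 4 against 4 is 0.0286. Unthinned, Trem2 was detected in 73.5% of gated cells at day 7.

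Cells with a Cd3e UMI, a T cell marker, and no Csf1r or Pdgfra UMI (Cd3e cells) gave a guide to the background of these shares. T cells should lack Trem2, Gpnmb, Lpl and Apoe. Leaving out cells with a Csf1r UMI can also leave out those with stray macrophage RNA, so the background can be understated. Day 7 held 100 Cd3e cells in 4 libraries. The mean thinned share over these libraries was 0.581% for Trem2 and Lpl, 1.16% for Gpnmb and 0.926% for Abca1. Pooled over the 100 cells, the share was 1.00% for Trem2, Lpl and Abca1 (1 cell each) and 2.00% for Gpnmb (2 cells). The mean share was 12.4% for Spp1, between 17.2% and 27.8% for Plin2, Cd9, Lgals3 and Fabp5, and 51.0% for Apoe. RNA set free from other cells can give such UMIs. The median depth was 4500 UMIs in Cd3e cells and 5730 in gated cells. At day 7 the share in gated cells was 26.0% for Cd9 and 88.6% for Apoe. The background differed between days. Trem2 in Cd3e cells was at 39.8 ± 16.9 CPM (SD, n = 3) at day 3 and 8.75 ± 10.1 (n = 4) at day 7. Only 12 Cd3e cells were found at day 3, and after thinning 100% of them held Apoe and 0% Trem2.

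Many gated cells held several members together. The mean number of members with a UMI per thinned cell was 2.26 ± 0.124 (SD over libraries) at day 0, 3.98 ± 0.125 at day 3, 4.42 ± 0.141 at day 7, 3.42 ± 0.221 at day 21 and 4.15 ± 0.21 with p7N3. Cells with 5 or more made up 2.77% ± 2.08, 33.9% ± 4.05, 45.7% ± 3.75, 25.3% ± 4.83 and 40.5% ± 4.15 in that order. Without Apoe among the genes counted, these shares were 0.542% ± 1.08, 17.5% ± 3.21, 30.1% ± 3.1, 12.7% ± 4.11 and 24.9% ± 3.79. No thinned cell of 384 at day 0 held 7 or more members, which allows a share of up to 0.781% for counting error alone, against 16.1% ± 1.99 at day 7. Trem2 and Gpnmb together were found in 0.456% ± 0.549 of cells at day 0 and 10.8% ± 1.43 at day 7. All these shares can rise because each member is detected more often. An expected number, from the separate shares of 2 genes, was computed for pairs only. For Trem2 with Gpnmb, the ratio of observed to expected averaged 2.78 at day 0 and 1.53 at day 7. The day 0 ratio rests on 4 cells with Gpnmb.

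Within libraries the members correlated over cells, to a low or moderate degree. Correlations were computed on log values within each of the 15 injured libraries and averaged, over cells thinned to equal depth, so that the cells of each value shared a library and its free RNA. Of 45 pairs, 40 had a mean r above 0, 27 were above 0 in all 15 libraries, and the median was 0.17. Pairs of other genes were not counted, so these counts have no background share beside them. Among 3312 genes ranked by mean r with Trem2 over all 19 libraries, Cd9, at -0.01, ranked 1917. Without collagen-rich cells it ranked 444, at 0.03. Trem2 with Cd9 averaged -0.02 at day 3, 0.06 at day 7, -0.13 at day 21 and 0.05 with p7N3. The highest pairs were Trem2 with Apoe (mean 0.4, range 0.34 to 0.48) and Gpnmb with Fabp5 (0.4, 0.2 to 0.58), followed by Gpnmb with Spp1 (0.38) and Spp1 with Fabp5 (0.34). The lowest was Apoe with Cd9, at -0.26 and below 0 in all 15 libraries. Averaged over its 9 pairs, Spp1 had the highest value, 0.26, and Cd9 the lowest, 0.06. Weak correlations in sparse counts carry little information, and no test was made.

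**Figure D4:**
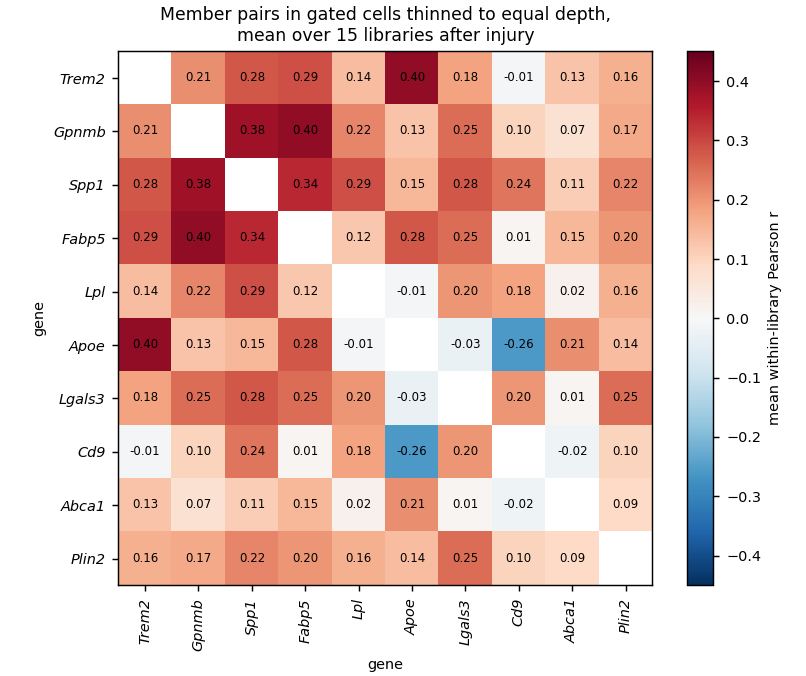
Pearson correlation between members over gated cells, averaged over the 15 injured libraries, as a heat map. Trem2 with Apoe and Gpnmb with Fabp5 reach 0.4, and Apoe with Cd9 is at -0.26.

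Gated cells were also split by whether the thinned cell held a Trem2 UMI. At day 7 (2506 cells with, 2584 without) Gpnmb was at 310 ± 65.7 CPM with Trem2 and 70.9 ± 17.9 CPM without, a ratio of 4.38, and Spp1 at 3175 ± 952 and 1130 ± 519 CPM, a ratio of 2.81. All 9 other members were higher in cells with Trem2 in each of the 4 libraries at day 7. Genes outside the set were not split in this way, so the count has no background share beside it and is description only. At day 21 the ratio was 5.55 for Gpnmb and 3.74 for Fabp5, whereas Cd9 was lower with Trem2 in all 4 libraries (250 ± 76.7 against 577 ± 157 CPM, ratio 0.433). This split kept collagen-rich cells. Over the whole gate at day 21, Cd9 was at 642 ± 176 CPM with them and 326 ± 56.1 without, and in Pdgfra cells at 861 ± 39.1. The part of collagen-rich cells in the Cd9 ratio was not tested. At day 0 (69 cells with, 315 without) the ratio was 1.59 for Apoe, higher in 4 of 4 libraries, and 0.395 for Lpl, higher in 0 of 4. The absence of a UMI does not show absence of the transcript, so the split only sorts cells by detection.

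**Figure D5:**
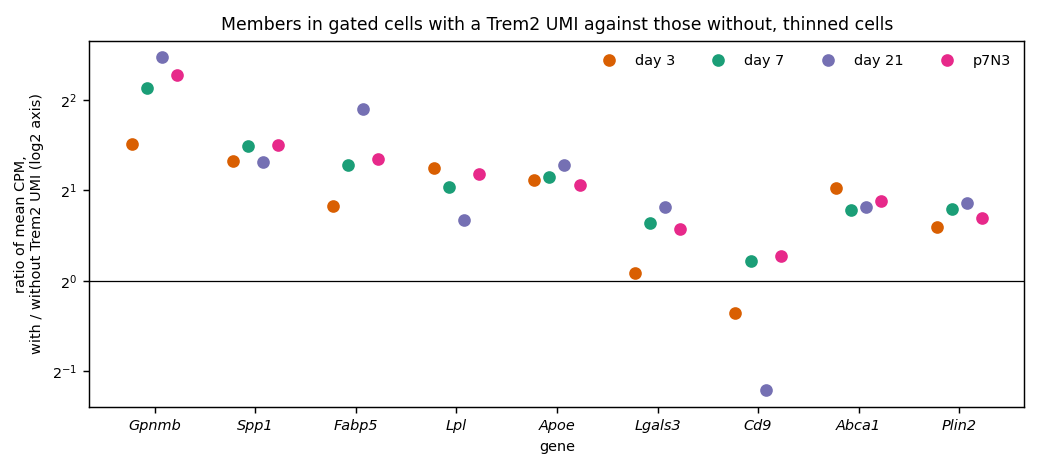
Ratio of mean CPM in gated cells with a Trem2 UMI to that without (log2 axis), for the other 9 members in each injured group. Collagen-rich cells are included. Gpnmb has ratios of 2.86 to 5.55 from day 3 on, and Cd9 drops to 0.433 at day 21.

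Subsets marked by a single gene carried the members unevenly. At day 7, cells with a UMI of Arg1, a marker of repair-type macrophages (285 cells), held Spp1 at 8579 ± 1977 CPM (SD, n = 4), against 2081 ± 649 in cells with Folr2, a resident macrophage marker (749 cells), and 536 ± 162 in cells with the monocyte marker Ly6c2 (298 cells). Cd9 was at 883 ± 135, 193 ± 40.2 and 163 ± 19.1 CPM, and Gpnmb at 408 ± 96.5, 191 ± 17.4 and 54.9 ± 10.9 CPM in the same order. Apoe was highest in Folr2 cells, at 40104 ± 7077 CPM against 20785 ± 11595 in Arg1 cells. Trem2 was similar in Arg1 and Folr2 cells (890 ± 128 and 836 ± 114 CPM) and at 210 ± 42.5 CPM in Ly6c2 cells. A cell can belong to more than 1 subset. Arg1 cells were 17.4% of gated cells at day 3, 5.60% at day 7, 1.48% at day 21 and 0 of 384 at day 0.

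The genes whose level over the 19 library sums was most like that of Trem2 were Cxcl16 (Pearson r = 0.961), Tmem86a (0.96), Hebp1 (0.954), Clec4n (0.951) and Ctss (0.951), of 7784 genes. Among members, Gpnmb ranked 7 (0.935), Lgals3 15, Fabp5 29 and Spp1 34, and Cd9 ranked 2059 and Abca1 2252. The libraries fall into time groups, so these values describe a shared course. Over 15286 cells within libraries, the most alike of 3312 genes were the lysosomal protease genes Ctsb (mean r = 0.37) and Lgmn (0.33), the complement genes C1qc and C1qb (0.32 each) and C1qa (0.3), Ctsd and Ftl1 (0.32 each), Ctss and Ms4a7 (0.29 each) and Lyz2 (0.28). Apoe ranked 2, with 0.36, and Cd9 ranked 1917. Without collagen-rich cells, Apoe again ranked 2, with 0.32, and Cd9 ranked 444, with 0.03.

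Of 10 Trem2 signalling genes, 4 rose and 3 fell at day 3 against day 0, where 23.8% of all genes rose and 26.4% fell. At day 7, 3 rose and 3 fell, beside 16.8% and 17.2% of all genes, and at day 21, 3 fell and none rose, beside 12.3% and 11.5%. Tyrobp, the adaptor, was at 1510 ± 208 CPM (SD over libraries) at day 0, 3530 ± 55.8 at day 3, 3130 ± 158 at day 7 and 1770 ± 272 at day 21. It rose by 1.36 ± 0.128 at day 3 (edgeR adjusted p = 6.7e-05) and fell by 0.85 ± 0.116 from day 7 to day 21 (adjusted p = 0.000697). Vav1, which relays signals to the cytoskeleton, rose by 1.42 ± 0.137 at day 3 (adjusted p = 7.2e-05), and Syk, the kinase recruited by the adaptor, fell by 0.72 ± 0.177 at day 21 against day 0 (adjusted p = 0.0148). The median over the list was 0.33, 0.24 and -0.05 at days 3, 7 and 21 against day 0.

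Of 11 genes of cholesterol efflux and storage, 7 rose, 1 fell and 3 did not pass at day 7 against day 0, with a median of 0.81, where 16.8% of all genes rose and 17.2% fell. Abcg1, another cholesterol transporter, was at 17.4 ± 6.16 CPM at day 0 and 48.3 ± 6.1 at day 7 and rose by 1.62 ± 0.208 (edgeR adjusted p = 0.000255). Nr1h3, which encodes the sterol sensor LXR alpha, rose by 2.23 ± 0.39 (adjusted p = 0.00157), and Soat1 and Nceh1, which make and split cholesterol esters, by 1.78 ± 0.147 (adjusted p = 2.1e-05) and 1.86 ± 0.201 (adjusted p = 9.1e-05). From day 7 to day 21, Abcg1 fell by 1.37 ± 0.22 (adjusted p = 0.00156) and Nr1h3 by 1.61 ± 0.218 (adjusted p = 0.000658). Of 8 cholesterol synthesis genes tested at day 7 against day 0, none rose and 2 fell, Insig1 and Srebf2, where 17.2% of all genes fell and 34.1% passed in either direction.

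Of the genes of lipid uptake, droplets and lipolysis, 5 of 15 tested rose and 3 fell at day 3 against day 0, beside 23.8% and 26.4% of all genes. At day 7, 3 of 18 rose and 4 fell, beside 16.8% and 17.2%. Hilpda, a lipid droplet protein induced by low oxygen, was at 15.4 ± 3.19 CPM at day 0 and 222 ± 65.8 at day 3 and rose by 3.91 ± 0.272 (edgeR adjusted p = 1.9e-05). It fell by 1.07 ± 0.206 from day 3 to day 7 (adjusted p = 0.00443). Gpihbp1, which anchors LPL on capillary endothelium, fell by 3.5 ± 0.313 at day 3 (adjusted p = 5.4e-05), and Mgll, a monoglyceride lipase, by 3.39 ± 0.334 (adjusted p = 8.2e-05). Fabp4, counted below with the other genes of lipid-associated macrophages and not in this list, also fell, by 2.36 ± 0.381 (edgeR adjusted p = 0.000989). It encodes a fatty acid carrier that macrophages, fat cells and capillary endothelium can all make. The 3 endothelial markers summed to 77.1 to 358 CPM at day 0 and 54.1 to 85.4 CPM at day 3 in the gate, and their part in these falls was not tested.

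Of the other genes known from lipid-associated macrophages, 8 of 13 tested rose and 4 fell at day 3 against day 0, beside 23.8% and 26.4% of all genes. At day 7, 10 of 15 rose and 3 fell, beside 16.8% and 17.2%, with a median of 1.32, and the 3 that fell were Cd36, Fabp4 and Csf1. Cd36, a receptor for fatty acids and oxidized lipoproteins, was at 725 ± 120 CPM (SD over libraries) at day 0, 116 ± 13.3 at day 3, 252 ± 75.4 at day 7 and 218 ± 95.3 at day 21. It fell against day 0 at each of these times, by 2.5 ± 0.164 (edgeR adjusted p = 1.7e-05), 1.33 ± 0.197 (adjusted p = 0.000584) and 1.64 ± 0.273 (adjusted p = 0.00244). Endothelial markers in the gate summed to 77.1 to 358 CPM at day 0 and 54.1 to 85.4 CPM at day 3. They summed to 49.3 to 109 CPM at day 7 and 33.1 to 154 CPM at day 21. The part of endothelial cells in the falls of Cd36 was not tested. The lysosomal protease genes Ctsd and Ctsl rose at day 7 by 2.17 ± 0.149 (edgeR adjusted p = 7.4e-06) and 2.04 ± 0.197 (adjusted p = 5.2e-05), and the integrin gene Itgax by 2.44 ± 0.452 (adjusted p = 0.00211). Axl, a receptor for dying cells, fell by 1.33 ± 0.231 at day 3 against day 0 (adjusted p = 0.00147). Itgax and Axl rose from day 3 to day 7, by 2.2 ± 0.246 (adjusted p = 0.000554) and 1.65 ± 0.173 (adjusted p = 0.000444). Of the receptors of osteopontin, 3 of 4 tested rose and 1 fell at day 3 against day 0, beside 23.8% and 26.4% of all genes. At day 7, 3 of 5 rose and 0 fell, beside 16.8% and 17.2%, and at day 21, 2 of 4 rose and 0 fell, beside 11.5% and 12.3%. From day 3 to day 7, 1 of 5 rose and 1 fell, beside 17.6% and 17.9%. Itgav rose by 1.86 ± 0.196 at day 3 (edgeR adjusted p = 0.000113), 1.78 ± 0.191 at day 7 (adjusted p = 9.1e-05) and 1.64 ± 0.211 at day 21 (adjusted p = 0.000705) against day 0. Cd44 rose by 1.05 ± 0.142 at day 3 (edgeR adjusted p = 4e-04) and fell by 0.85 ± 0.123 from day 3 to day 7 (adjusted p = 0.00145). None of the genes of these lists passed between p7N3 and day 7.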

How the data were processed

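The authors made droplet libraries with the 10x Genomics 3′ chemistry and deposited, for each of the 19 libraries, a matrix of UMI counts per gene and cell. The submitters' processing notes name Cell Ranger and Seurat and give the build as GRCh38 for replicates 1 to 3 and mm10 for replicate 4 of each group that has one, whereas the gene identifiers in the deposited counts are mouse in all of them. Replicates 1 to 3 were therefore also tested alone, and replicate 4 gives 1 library per group and no test. UMI counts come from the 3′ end, so a count does not depend on transcript length, and genes with overlapping 3′ ends were not separated further.

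From these counts, barcodes with 500 or more genes and no more than 25% mitochondrial UMIs were taken as cells (39541 in all, 3019467 to 39870492 UMIs per library), without removal of doublets. Libraries shared at most 22 barcodes. UMIs were summed per library over gated cells (at least 1 Csf1r UMI, 0 Pdgfra UMIs). Genes were filtered with filterByExpr, scaled by TMM and tested with the quasi-likelihood test of edgeR 4.0.16 in R 4.3.3, with Benjamini-Hochberg adjustment over all genes tested and a threshold of 0.05, using the libraries of the groups compared. The day 0, day 3, day 7 and day 21 libraries each enter more than 1 comparison. The labels do not tie libraries to mice. The study's reporting summary describes the single cell replicates as meant to capture variation between mice, and p-values measure only the spread between these libraries. The test was also run on simulated counts with the same spread for every gene. That run does not cover the wider spread of some genes here. Shares of cells, correlations and the Trem2 split used cells thinned to 1500 UMIs. Shares were compared by an exact permutation test over libraries, and intervals and upper limits cover counting error only. Correlations used log(1 + count) over cells and log2(CPM + 1) over libraries. numpy 2.4.6, scipy 1.17.1, pandas 2.3.3 and scanpy 1.11.5 were used in Python 3.11.15. Coordinates are those of GRCm38 and start regions those of RefSeq.

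Named genes were the 10 members, up to 4 genes per fixed pathway list and comparison (past the threshold, groups not overlapping, higher mean of at least 10 CPM, largest fold change first), the 5 genes most like Trem2 over libraries, and the 10 most like it over cells among genes in at least 5% of cells. The members and lists were chosen with earlier results of these data known. Alternatives were DESeq2 1.42.0, RLE factors, library size only, no filter or at least 10 UMIs in every library, a single fit of the 5 groups, a replicate block, each library left out, replicates 1 to 3, other gates (at least 2 Csf1r UMIs, more Csf1r than Pdgfra UMIs, Cd68 also required, gate after thinning), stricter cell filters (1000 genes or 10% mitochondrial UMIs), removal of the top 3.9% of Scrublet scores, and other thinning depths. Leaving out collagen-rich cells was chosen after seeing the data.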

Additional observations from a re-analysis of the deposited data

Results flagged for a closer look

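Plin2 at day 21 was flagged because 1 of its 4 libraries lay far from the others: replicate 1 was at 131 CPM, against 193, 184 and 185 CPM, and the gap to its neighbour was 0.855 of the range. The share of thinned gated cells with an Lgals3 UMI in the p7N3 group was flagged for the same reason, with 84.6% in replicate 3 against 81.6%, 81.7% and 81.3% (0.882 of the range). Both are above Dixon's critical value for 4 samples. In all, 80 groups of 4 libraries were examined and 2 were flagged, where chance alone flags about 1 in 20.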

How the results depend on the processing

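The number of members called stayed within 1.5 times its reported value under every alternative run, except that 8 members were called at day 21 against day 7 without day 21 replicate 3, against 4 with all libraries (3 to 8 over all left-out libraries). Day 0 limits the low genes most, with 324205 to 837210 UMIs in the gate.

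The replicate numbers did not pair the libraries: same-numbered libraries correlated between -0.21 and 0.31 in their deviations from the group means. With a replicate block, members called were 6, 10 and 7 at days 3, 7 and 21 against day 0, 7 at day 7 against day 3, 5 at day 21 against day 7 and 0 for p7N3. Lpl lost its call at day 21 against day 0 (0.72, adjusted p = 0.0602) and day 7 against day 3 (0.76, adjusted p = 0.0573), and Apoe at day 21 against day 7 passed (-0.46, adjusted p = 0.0465).

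Some small differences changed sign, and the cause was not tested. At day 3 against day 0, Apoe was 0.21 with no filter and 0.14 in a single fit (-0.10 to 0.21 over left-out libraries). Cd9 was 0.18 with at least 2 Csf1r UMIs and 0.02 with Cd68 required. Abca1 was -0.08 with library size only, -0.28 with at least 2 Csf1r UMIs, -0.29 with the gate after thinning and -0.18 with Cd68 required (-0.01 to 0.21 over left-out libraries). At day 21, Abca1 against day 0 was -0.02 with library size only (-0.09 to 0.18 over left-out libraries) and against day 7 0.01 without collagen-rich cells, and Cd9 against day 7 was -0.35 with Cd68 required and -0.40 without collagen-rich cells. For p7N3 against day 7, Spp1 was -0.10 with at least 2 Csf1r UMIs, -0.31 with the gate after thinning and -0.03 without collagen-rich cells, Fabp5 -0.02 with more Csf1r than Pdgfra UMIs and -0.03 without collagen-rich cells, and Abca1 -0.01, -0.0027 and -0.02 with more Csf1r than Pdgfra UMIs, with Cd68 required and without collagen-rich cells. Over left-out libraries the p7N3 values ran from -0.08 to 0.22 for Spp1, -0.12 to 0.14 for Fabp5, -0.28 to 0.04 for Apoe, -0.18 to 9.0e-05 for Lgals3, -0.16 to 0.05 for Cd9 and -0.07 to 0.10 for Abca1. The p7N3 differences in share (percentage points) were 0.0352 for Apoe and 0.283 for Lgals3 without thinning and 0.710 for Fabp5 with at least 2 Csf1r UMIs, and over left-out libraries ran from -2.0 to 0.728 for Fabp5, -1.12 to 0.178 for Lgals3, -2.57 to 0.615 for Cd9, -2.14 to 0.313 for Abca1 and -2.70 to 0.553 for Plin2. The gate moved several rises against day 0 by over 1.5 times without ending them. With at least 2 Csf1r UMIs, Gpnmb was 3.08, 5.70 and 5.06 and Fabp5 3.93, 5.25 and 4.46 at days 3, 7 and 21, Spp1 7.04 and 4.88 and Lpl 1.96 and 1.65 at days 7 and 21, and Cd9 1.75 at day 7. With Cd68 required, Gpnmb was 2.84, 5.54 and 4.97 at days 3, 7 and 21, Fabp5 5.05 and 4.28 and Lpl 1.89 and 1.64 at days 7 and 21, and Cd9 1.60 at day 7. With the gate after thinning, Gpnmb was 1.15, 3.32 and 2.82 at days 3, 7 and 21, Fabp5 3.8 and 4.13 at days 3 and 21, and Lpl 1.43 at day 21. Among calls that changed were Apoe at day 3 against day 0, gained with at least 2 Csf1r UMIs (-0.35), the gate after thinning (-0.34) and Cd68 required (-0.36), Abca1 at day 7 against day 0, lost with library size only (0.28), replicates 1 to 3 (0.40), at least 2 Csf1r UMIs (0.31) and the gate after thinning (0.23), and Cd9 at day 21 against day 7, lost with at least 2 Csf1r UMIs (0.28), the gate after thinning (0.26), RLE factors (0.57), no filter (0.55), a single fit (0.55), replicates 1 to 3 (0.48) and the top Scrublet scores removed (0.55). Lpl in gated against Pdgfra cells was 0.11 with no library block.

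Counts of all genes called moved by over 1.5 times as follows. At least 10 UMIs in every library, which tests fewer genes, gave 2338 at day 3 and 2145 at day 7 against day 0 (3867 and 3673 as reported), and replicates 1 to 3 gave 2419 at day 7. At day 21 against day 0 (2055), a single fit gave 3469, replicates 1 to 3 781, the gate after thinning 1308, Cd68 1223, and leaving out day 21 replicate 1 or 4 1348 or 1351. At day 7 against day 3 (4429), the gate after thinning gave 2923, and leaving out day 3 replicate 1 or 3 2929 or 2952. At day 21 against day 7 (3252), replicates 1 to 3 gave 1966, at least 2 Csf1r UMIs 1674, the gate after thinning 1046, Cd68 1215 and leaving out collagen-rich cells 1456. For p7N3 (0), DESeq2 gave 16, the replicate block 8 and the gate after thinning 2.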
